A study of Homo sapiens with 36 samples.

Results

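The genes described here drive or restrain the passage of cells from G1 into S phase. They are the cyclins CCND1, CCND3, CCNE1 and CCNE2, the cyclin-dependent kinases CDK2, CDK4 and CDK6, the kinase inhibitors CDKN1B and CDKN2C, and the phosphatase CDC25A. They were chosen by name, with earlier results of these data known, and all 10 are among the 11828 genes in the authors' deposited table. That table comes from RNA sequencing of poly(A)-selected mRNA in melanoma cells that carry mutant BRAF (A375) and in lung adenocarcinoma cells that carry mutant EGFR (HCC827). After 3 days of treatment, each line had 4 groups of 2 libraries each. These were the combination of 6-thio-dG with a targeted drug, 6-thio-dG alone, the targeted drug alone, and DMSO as control. The targeted drug was the BRAF inhibitor PLX4720 in A375 and the EGFR inhibitor osimertinib in HCC827, and 6-thio-dG is a modified guanine nucleoside that telomerase can build into telomeres. Each line is 1 cultured line, and the labels give no dose and do not say whether the libraries of a group came from separate cultures.

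For each of 4 comparisons the table lists log2 fold changes with raw and adjusted p-values, and it has 0 columns of values for single libraries. Levels, the spread between libraries and sequencing depth are therefore unknown, and the identity of the lines could not be checked against lineage markers. Each error given below is the standard error (SE) that a fold change and its p-value imply together. Values are log2 fold changes of the treatment named first over the group it is set against, so that positive means higher with 6-thio-dG. A gene is said to have risen or fallen where the authors' adjusted p was under 0.05. The table heads the arm opposite 6-thio-dG "RNA" and the arm opposite the combination "TKI1". They were read as the DMSO control and as the targeted drug, which the header does not state. Differences between comparisons are not the authors' own: they were tested by a z test on the implied errors, with Benjamini-Hochberg adjustment over all genes. Where GC content is mentioned, the smooth trend of fold change on the GC content of the transcript was subtracted and the p-values were recomputed. In bulk RNA, fewer cycling cells and less RNA per cell cannot be told apart.

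D-type cyclins pair with CDK4 and CDK6 and begin the phosphorylation of the retinoblastoma protein RB, which releases E2F transcription factors. E2F factors then drive the E-type cyclins, which activate CDK2, and CDC25A, which removes inhibitory phosphates from CDK2. CDKN2C (p18) binds CDK4 and CDK6 and blocks them, and CDKN1B (p27) blocks mainly cyclin E with CDK2. In both lines the targeted drug acts on a growth factor pathway whose output includes transcription of CCND1.

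Across the 10 genes, 6-thio-dG alone had opposite patterns in the 2 lines. In A375, 9 fell and 1 rose. In HCC827, 6 rose and 0 fell. Over all genes of the authors' deposited table, 33.7% fell and 31.3% rose in A375, and 14.8% rose and 14.4% fell in HCC827. The 10 members had a median log2 fold change of -1.30 in A375 and 1.09 in HCC827, beside 0.01 over all genes in either line. CCND3, CCNE1, CCNE2, CDK2, CDKN2C and CDC25A fell in A375 and rose in HCC827. Such opposite calls were found for 11.5% of all genes, and calls in the same direction for 8.16%.

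When 6-thio-dG was added to the targeted drug, fewer of the 10 genes passed. In A375, 3 fell and 2 rose against PLX4720, beside 29.3% and 31.2% of all genes in the authors' deposited table, so the members' shares were near those of the table. In HCC827, 3 fell and 1 rose against osimertinib, beside 17.9% and 17.3% of all genes. The medians of the 10 genes were -0.11 in A375 and -0.16 in HCC827. CDKN1B was the single member that fell in both lines with the combination, and CDK4 and CDK6 passed in both lines in opposite directions. Over all genes 9.27% were called in the same direction in both lines and 11.4% in opposite directions, so these counts were near those of the table.

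**Figure D1:**
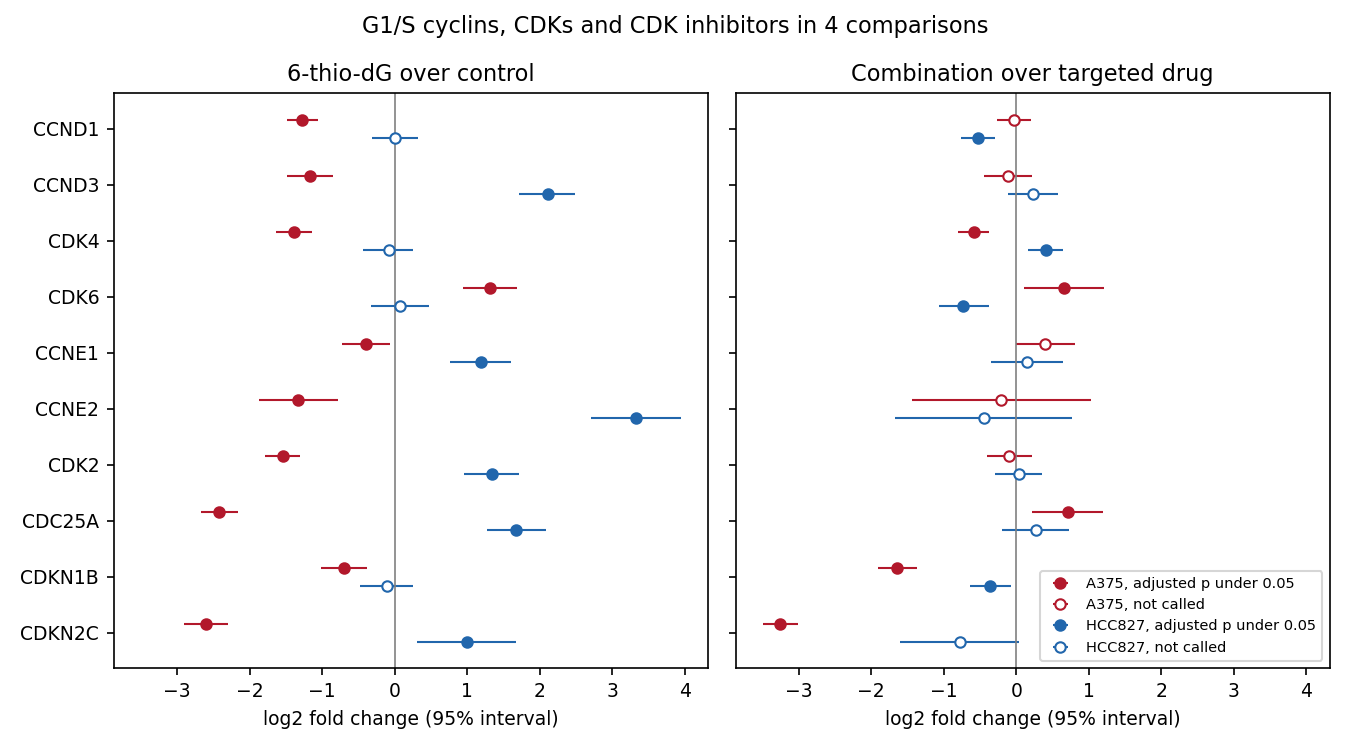
Log2 fold changes of the 10 genes (horizontal axis, with 95% intervals from the implied standard errors) for 6-thio-dG over control on the left and for the combination over the targeted drug on the right, with A375 above HCC827 for each gene. Filled points passed the authors' adjusted p of 0.05: on the left 9 of 10 A375 points lie below 0 and 6 filled HCC827 points lie above it, and on the right CDKN2C in A375 lies farthest from 0, at -3.26.

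The D-type cyclins parted in HCC827 and moved together in A375. CCND1 (chr11:69641087-69654474, plus strand, GRCh38), the cyclin that growth factor signalling induces most directly, fell after 6-thio-dG in A375, at -1.27 ± 0.11 (SE) in the authors' deposited table (adjusted p = 1.02e-28), which is 2.41-fold lower. In HCC827 its log2 fold change was 0.00 ± 0.16 in the same table, with a 95% interval from -0.31 to 0.32. CCND3 (chr6:41934933-42050357, minus strand), the D-type cyclin best known from lymphoid cells and muscle, fell to a like degree in A375, at -1.17 ± 0.16 in the authors' deposited table (adjusted p = 7.11e-12). In HCC827 it rose 4.30-fold, at 2.11 ± 0.20 in the authors' deposited table (adjusted p = 8.46e-24), and 99.6% of all genes had a lower value there. A375 thus lay below HCC827 for both cyclins, with differences, computed from the authors' values, of -1.27 ± 0.20 for CCND1 (adjusted p = 7.58e-10) and -3.28 ± 0.26 for CCND3 (adjusted p = 3.35e-35).

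On top of the targeted drug, CCND1 in HCC827 was the single call among the D-type cyclins. CCND1 was at -0.03 ± 0.12 in A375 with PLX4720 and fell in HCC827 with osimertinib, at -0.53 ± 0.12 in the authors' deposited table (adjusted p = 1.41e-04). From the authors' values, its effect in A375 lay above that in HCC827 by 0.50 ± 0.17 (adjusted p = 0.00616). For CCND3 the authors' deposited table gives -0.12 ± 0.16 in A375 and 0.23 ± 0.18 in HCC827, and neither passed. Their difference was -0.35 with a 95% interval from -0.83 to 0.13. Of CCND1, 10.3% of the exonic bases in GENCODE 29 also lie in exons of LTO1 on the opposite strand. Whether reads were counted by strand is not given, so reads of the 2 genes cannot be told apart there. LTO1 rose in A375 in both comparisons, at 1.04 after 6-thio-dG and 1.60 with the combination in the authors' deposited table. The part of LTO1 reads in the CCND1 values was not tested.

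The partner kinases CDK4 and CDK6 moved in opposite directions wherever both passed. In A375 after 6-thio-dG, CDK4 (chr12:57747727-57756013, minus strand) fell, at -1.39 ± 0.13 in the authors' deposited table (adjusted p = 4.08e-26), and CDK6 (chr7:92604921-92836594, minus strand) rose, at 1.32 ± 0.19 (adjusted p = 1.28e-11). CDK6 was the single member that rose there. In HCC827 after 6-thio-dG neither kinase passed, with -0.08 ± 0.18 for CDK4 and 0.07 ± 0.21 for CDK6 in the authors' deposited table. With the combination in A375 the pattern was the same in sign, with CDK4 at -0.59 ± 0.11 (adjusted p = 2.24e-07) and CDK6 at 0.66 ± 0.28 (adjusted p = 0.0368) per the authors' deposited table. In HCC827 the signs were turned, with CDK4 at 0.41 ± 0.13 (adjusted p = 0.00666) and CDK6 at -0.73 ± 0.18 (adjusted p = 4.60e-04) per the authors' deposited table. With the GC trend removed from the authors' values, neither passed in HCC827 (adjusted p = 0.342 for CDK4 and 0.637 for CDK6), and CDK6 in the A375 combination did not (0.37, adjusted p = 0.247).

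The lines differed for both kinases under both contrasts. For 6-thio-dG alone the A375 minus HCC827 difference from the authors' values was -1.31 ± 0.22 for CDK4 (adjusted p = 1.43e-08) and 1.25 ± 0.28 for CDK6 (adjusted p = 3.03e-05). For the combination it was, from the authors' values, -0.99 ± 0.17 for CDK4 (adjusted p = 1.51e-08) and 1.38 ± 0.33 for CDK6 (adjusted p = 1.03e-04). With the GC trend removed CDK6 was at 0.70 after 6-thio-dG in A375, still a rise. Its differences between the lines, from the authors' values without that trend, were 0.50 for 6-thio-dG (adjusted p = 0.129) and 0.56 for the combination (adjusted p = 0.164). For CDK4, 43.2% of its exonic bases are shared with TSPAN31 on the opposite strand, which stood at 1.87 after 6-thio-dG in A375 in the authors' deposited table (adjusted p = 6.84e-20). TSPAN31 was at -0.50 in HCC827 after 6-thio-dG, and at 0.38 in A375 and 0.51 in HCC827 with the combination, in the authors' deposited table. The part of its reads in the CDK4 values was not tested.

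Promoter sequence is shown for CDC25A, the single member whose window held E2F letters, and for CDK4, whose window held the most E-box letters. RefSeq promoter windows (GRCh38.p14, 250 bases before to 50 after a start) were matched for 7 of the 10 genes, in 12 windows. CCND1, CCNE2 and CDK2 had no entry. The E2F letters TTTCCCGC, TTTGGCGC and TTTCGCGC were searched on both strands and found in 1 of the 12 windows, that of CDC25A, and in 2.74% of all 35116 windows. The E-box letters CACGTG, which MYC and other factors bind and which read the same on both strands, were found in 4 of the 12 windows, 1 each of CDK4 and CDK6 and 2 of CDKN2C, and in 7.26% of all windows. The AP-1 letters TGANTCA were in 0 of the 12 windows and in 7.71% of all. CDK4 held the E-box letters 3 times, at positions -216, -196 and -101 from the start, and CDC25A its E2F letters at -44. Both stretches are printed 5′ to 3′ on the gene's strand, with the matched letters in capitals.
CDC25A, chr3:48188418-48188517, minus strand, positions -100 to -1: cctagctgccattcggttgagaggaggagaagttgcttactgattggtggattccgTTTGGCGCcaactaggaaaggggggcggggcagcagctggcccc
CDK4, chr12:57752390-57752540, minus strand, positions -230 to -80: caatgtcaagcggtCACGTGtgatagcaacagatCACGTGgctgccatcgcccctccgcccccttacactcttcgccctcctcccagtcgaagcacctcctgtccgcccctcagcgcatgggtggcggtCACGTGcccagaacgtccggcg
A match of letters is a description of the window and says nothing of binding in these cells.

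After 6-thio-dG, CCNE1, CCNE2, CDK2 and CDC25A, the cyclin E arm of the pathway, all fell in A375 and all rose in HCC827. CCNE2 (chr8:94879770-94896678, minus strand), an E-type cyclin, rose 10.0-fold in HCC827, at 3.33 ± 0.32 in the authors' deposited table (adjusted p = 1.67e-23), and 99.9% of all genes had a lower value. It fell in A375, at -1.33 ± 0.28 in the authors' deposited table (adjusted p = 6.73e-06). CCNE1 (chr19:29811898-29824308, plus strand), the other E-type cyclin, rose 2.27-fold in HCC827, at 1.19 ± 0.21 in the authors' deposited table (adjusted p = 9.71e-07), and its fall in A375 was small, at -0.39 ± 0.17 (adjusted p = 0.0371). That fall was lost with the GC trend removed from the authors' values (-0.14, adjusted p = 0.499), while CCNE2 moved to -2.24 under the same setting.

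CDK2 and CDC25A followed the same pattern with small errors. CDK2 (chr12:55966769-55972784, plus strand), the kinase that E-type cyclins activate, stood at -1.54 ± 0.12 in A375 (adjusted p = 1.97e-35) and at 1.34 ± 0.20 in HCC827 (adjusted p = 4.58e-10) in the authors' deposited table. CDC25A (chr3:48157146-48188402, minus strand), whose promoter stretch with E2F letters is printed above, fell 5.35-fold in A375, at -2.42 ± 0.13 (adjusted p = 9.16e-76), and rose 3.20-fold in HCC827, at 1.68 ± 0.21 (adjusted p = 7.13e-14), per the authors' deposited table. The A375 minus HCC827 differences from the authors' values were -4.65 ± 0.42 for CCNE2 (adjusted p = 9.43e-27), -4.10 ± 0.24 for CDC25A (adjusted p = 1.35e-60), -2.88 ± 0.23 for CDK2 (adjusted p = 4.91e-34) and -1.58 ± 0.27 for CCNE1 (adjusted p = 5.76e-08). INTS8, on the opposite strand, shares 37.0% of the exonic bases of CCNE2 and passed in neither line after 6-thio-dG, at 0.17 in A375 and -0.11 in HCC827 in the authors' deposited table. With the GC trend removed from the authors' values, INTS8 passed as a fall in A375 (-0.56, adjusted p = 4.24e-04).

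Added to the targeted drug, 6-thio-dG left most of the cyclin E arm without a call. The targeted drug alone was not compared with control, so where these genes stood with that drug is unknown. CDC25A rose in A375 against PLX4720, at 0.71 ± 0.25 in the authors' deposited table (adjusted p = 0.00989), and the other values of this arm did not pass. CDK2 was narrowly bounded, with 95% intervals from -0.40 to 0.21 in A375 and from -0.30 to 0.36 in HCC827. CCNE1 had 0.40 ± 0.21 in A375 and 0.15 ± 0.26 in HCC827 in the authors' deposited table. CCNE2 was the least precise member, at -0.21 ± 0.63 in A375 and -0.45 ± 0.63 in HCC827, so that its intervals, from -1.44 to 1.03 and from -1.68 to 0.77, allow changes of more than 2-fold either way in A375 and a fall of that size in HCC827. None of CCNE1, CCNE2, CDK2 and CDC25A passed for a difference between the lines with the combination. The 95% intervals of the A375 minus HCC827 difference ran from -0.40 to 0.89 for CCNE1, from -1.50 to 1.99 for CCNE2, from -0.58 to 0.32 for CDK2 and from -0.23 to 1.12 for CDC25A.

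CDKN1B and CDKN2C fell in both A375 comparisons. CDKN2C had the lowest value of the 10 genes in both, although with the GC trend removed CCNE2, at -2.24, lay just below CDKN2C, at -2.20, after 6-thio-dG alone. CDKN2C (chr1:50960745-50974633, plus strand), the p18 inhibitor of CDK4 and CDK6, was 9.56-fold lower with the combination than with PLX4720, at -3.26 ± 0.13 in the authors' deposited table (adjusted p = 1.62e-145), and 1.8% of all genes had a lower value. After 6-thio-dG alone in A375 it was 6.06-fold lower than in control, at -2.60 ± 0.15 in the authors' deposited table (adjusted p = 1.27e-64). In HCC827 it rose after 6-thio-dG, at 1.00 ± 0.35 in the authors' deposited table (adjusted p = 0.0208), and stood at -0.78 ± 0.42 with the combination (adjusted p = 0.130). The HCC827 rise had an adjusted p of 0.0503 with the GC trend removed. From the authors' values, A375 minus HCC827 was -3.60 ± 0.38 for 6-thio-dG (adjusted p = 7.38e-20) and -2.48 ± 0.44 for the combination (adjusted p = 9.07e-08).

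CDKN1B (chr12:12715058-12722371, plus strand), the p27 inhibitor that FOXO factors induce, fell in 3 of the 4 comparisons and rose in 0. With the combination it fell 3.12-fold in A375, at -1.64 ± 0.14 (adjusted p = 7.07e-31), and 1.28-fold in HCC827, at -0.36 ± 0.14 (adjusted p = 0.0406), per the authors' deposited table. After 6-thio-dG alone it fell in A375, at -0.70 ± 0.16 in the authors' deposited table (adjusted p = 4.27e-05), and stood at -0.11 ± 0.19 in HCC827. The HCC827 fall did not pass with the GC trend removed from the authors' values (-0.32, adjusted p = 0.192). For the combination, A375 minus HCC827 from the authors' values was -1.28 ± 0.20 (adjusted p = 1.22e-09). For 6-thio-dG alone the difference from the authors' values was -0.59 ± 0.25 (adjusted p = 0.0313), and with the GC trend removed it was -0.53 (adjusted p = 0.0608). p27 is regulated largely through protein breakdown, which these data do not measure.

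For 6-thio-dG alone all 10 genes differed between the lines. Their A375 minus HCC827 difference was below 0 for 9 and above 0 for CDK6, while over all genes 28.9% were below and 26.2% above 0 at the same adjusted p. For the combination, CDK4, CDKN1B and CDKN2C were below 0 and CCND1 and CDK6 above it, beside 27.5% below and 28.9% above over all genes.

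**Figure D2:**
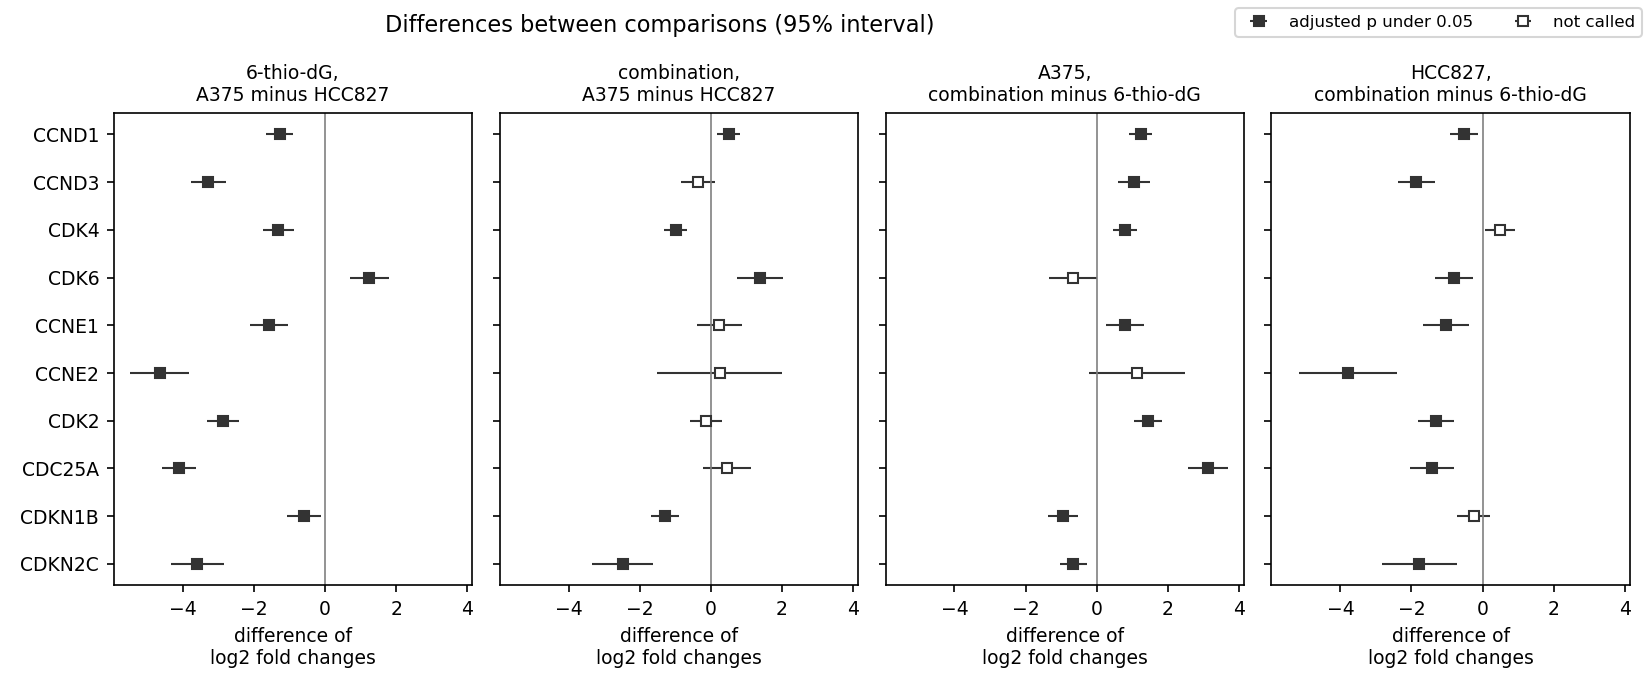
Differences between log2 fold changes of the 10 genes with 95% intervals, in 4 panels: A375 minus HCC827 for 6-thio-dG and for the combination, then combination minus 6-thio-dG within A375 and within HCC827. Filled squares passed an adjusted p of 0.05; in the first panel all 10 are filled and CDK6 alone lies above 0, and in the last panel 8 are filled, all below 0.

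Whether 6-thio-dG acted differently on top of the targeted drug than alone was compared within each line. The references differ, being the targeted drug and the control. No comparison of the targeted drug with control is given, so a difference may also reflect where a gene stood with that drug, which was not tested. In A375 6 of the 8 drivers stood higher in the combination comparison: CCND1, CCND3, CCNE1, CDK2, CDK4 and CDC25A had a difference above 0 (28.5% of all genes did), and CDKN1B and CDKN2C had one below 0 (24.1% did). The difference was widest for CDC25A, at 0.71 with the combination and -2.42 alone, a difference from the authors' values of 3.13 ± 0.28 (adjusted p = 5.89e-27). From the authors' values CDK2 followed with 1.44 ± 0.20 (adjusted p = 3.74e-12) and CCND1 with 1.24 ± 0.16 (adjusted p = 2.95e-13). The differences from the authors' values were negative for the inhibitors, at -0.95 ± 0.21 for CDKN1B (adjusted p = 3.57e-05) and -0.66 ± 0.20 for CDKN2C (adjusted p = 0.00238). CDK6, at -0.66 ± 0.34, and CCNE2, at 1.12 ± 0.69, did not pass. With the GC trend removed from the authors' values CCNE1 no longer passed (0.55, adjusted p = 0.0753) and CCNE2 did (1.65, adjusted p = 0.0351).

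In HCC827 the sign was turned for 6 members, CCND1, CCND3, CCNE1, CCNE2, CDK2 and CDC25A, and was the same as in A375 for CDK4, CDK6, CDKN1B and CDKN2C. The difference of combination minus 6-thio-dG was below 0 for 8 members and above 0 for 0, beside 11.4% and 10.8% of all genes. CCNE2 differed most, at -0.45 with the combination and 3.33 alone, a difference from the authors' values of -3.78 ± 0.70 (adjusted p = 3.41e-06). From the authors' values CCND3 differed by -1.87 ± 0.27 (adjusted p = 3.67e-10), CDKN2C by -1.78 ± 0.54 (adjusted p = 0.00867) and CDC25A by -1.41 ± 0.32 (adjusted p = 1.73e-04). CDK2 differed by -1.31 ± 0.26 and CCNE1 by -1.03 ± 0.33. CCND1, at -0.53 ± 0.20 from the authors' values (adjusted p = 0.0379), and CDK6, at -0.80 ± 0.27 (adjusted p = 0.0203), lay close to the threshold, and CDK6 lost its call with the GC trend removed (-0.39, adjusted p = 0.351). CDK4 and CDKN1B did not pass, at 0.49 ± 0.22 and -0.25 ± 0.24.

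Other genes of the G1/S pathway were counted in lists by role. They are read against the shares of all genes given for each comparison. Of the other CDK inhibitors, 4 of 5 were measured. After 6-thio-dG 2 rose and 2 fell in A375, and 1 rose and 0 fell in HCC827, and with the combination 2 rose and 1 fell in A375, and 2 rose and 0 fell in HCC827. CDKN1A (p21), the inhibitor that p53 induces, stood at 2.51 ± 0.16 after 6-thio-dG and at 2.65 ± 0.13 with the combination in A375, a rise in both, and CDKN1C (p57) fell in both, at -3.62 ± 0.28 and -3.21 ± 0.35, in the authors' deposited table. In HCC827 after 6-thio-dG CDKN1A was at -0.45 (adjusted p = 0.0537; 0.00774 with the GC trend removed), and CDKN2D (p19), of the same family as CDKN2C, rose at 1.57 ± 0.33 in the authors' deposited table. With the combination in HCC827 CDKN2A (p16) and CDKN1C rose, at 0.55 and 0.53 in the authors' deposited table, and with the GC trend removed both lost the call (adjusted p = 0.439 and 0.734).

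The RB and E2F list had 13 of 13 genes measured. After 6-thio-dG, 8 fell and 3 rose in A375 (median -0.72), and 5 rose and 2 fell in HCC827 (median 0.11). E2F1, a driver of S-phase genes, stood at -2.76 ± 0.17 in A375 and at 1.95 ± 0.19 in HCC827 in the authors' deposited table. E2F2, its close relative, fell in A375 at -3.92 ± 0.20 and rose in HCC827 at 1.60 ± 0.26 in the authors' deposited table. E2F8, a repressor of the family, fell in A375 at -3.22 ± 0.26 and rose in HCC827 at 1.80 ± 0.27 in the same table. With the combination 7 fell and 3 rose in A375, where E2F7, another repressor, rose at 1.99 ± 0.21 and the RB relative RBL2 fell at -1.23 ± 0.14 in the authors' deposited table. In HCC827 3 fell and 0 rose with the combination, RB1 at -0.95 and RBL2 at -0.65 among them in the authors' deposited table, and with the GC trend removed neither passed (adjusted p = 0.476 and 0.188).

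The other CDC25 phosphatases and the inhibitory kinases WEE1 and PKMYT1, which act mostly on CDK1, all 4 fell in both A375 comparisons. PKMYT1 was at -3.64 ± 0.21 after 6-thio-dG and CDC25B at -3.30 ± 0.12 in the authors' deposited table. With the combination they were at -1.53 ± 0.38 and -1.75 ± 0.15. In HCC827 after 6-thio-dG 2 of the 4 rose, among them PKMYT1 at 1.61 ± 0.22, and CDC25B fell at -0.43 ± 0.16, in the authors' deposited table. WEE1 was the 1 gene of the 4 that passed in HCC827 with the combination, falling at -0.82 in the authors' deposited table, and lost the call with the GC trend removed (adjusted p = 0.403).

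Parts of the ubiquitin ligases that break down cyclins and p27 numbered 17. In A375 after 6-thio-dG 9 fell and 1 rose, and in HCC827 4 rose and 1 fell. DTL, the receptor of a ligase that destroys CDT1 and p21 in S phase, stood at -3.16 ± 0.13 in A375 and 1.34 ± 0.19 in HCC827 in the authors' deposited table. CKS1B, the cofactor through which the ligase subunit SKP2 binds p27, fell in A375 at -1.99 ± 0.12, and RBX1, a shared ring subunit, rose in HCC827 at 1.08 ± 0.27, in the authors' deposited table. With the combination 6 fell and 3 rose in A375, where DTL was at -1.19 and CKS2 at 1.20, and 5 fell and 3 rose in HCC827, where CUL3 was at -0.60 and CUL4B at -0.50 in the authors' deposited table. Those 2 HCC827 values turned to 0.05 and 0.14 with the GC trend removed.

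Transcription factors upstream of the 10 genes were 5. After 6-thio-dG in A375, FOXM1 and MYBL2, which drive mitotic genes, fell at -5.16 and -3.89 in the authors' deposited table, and the other 3 rose. In HCC827 after 6-thio-dG 3 rose and 1 fell: MYBL2 rose, at 1.46 ± 0.17, and MYC fell, at -0.85 ± 0.21, in the authors' deposited table. With the combination 4 fell and 1 rose in A375, with FOXM1 at -2.58 and MYBL2 at -2.12, and in HCC827 0 rose and MYC alone fell, at -0.52 ± 0.11, in the authors' deposited table.

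Mitotic cyclins with CDK1 and CDC20 marked the later part of the cycle. All 5 fell in both A375 comparisons, with medians of -4.12 after 6-thio-dG and -0.84 with the combination, and in HCC827 4 rose after 6-thio-dG (median 0.72). CDC20 stood at -4.46 ± 0.13 in A375 and at 1.19 ± 0.17 in HCC827 after 6-thio-dG in the authors' deposited table. In A375 after 6-thio-dG these 5 lay further below 0 than any of the 10 G1/S genes except CDKN2C and CDC25A: CDK1 had the smallest fall, at -2.24, and the G1/S genes other than those 2 ran from -1.54 to 1.32. With the combination in HCC827 1 of the 5 fell, which was CDK1. It fell with the combination in both lines, at -1.38 in A375 and -1.14 in HCC827 in the authors' deposited table, and lost the HCC827 call with the GC trend removed (adjusted p = 0.395).

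**Figure D3:**
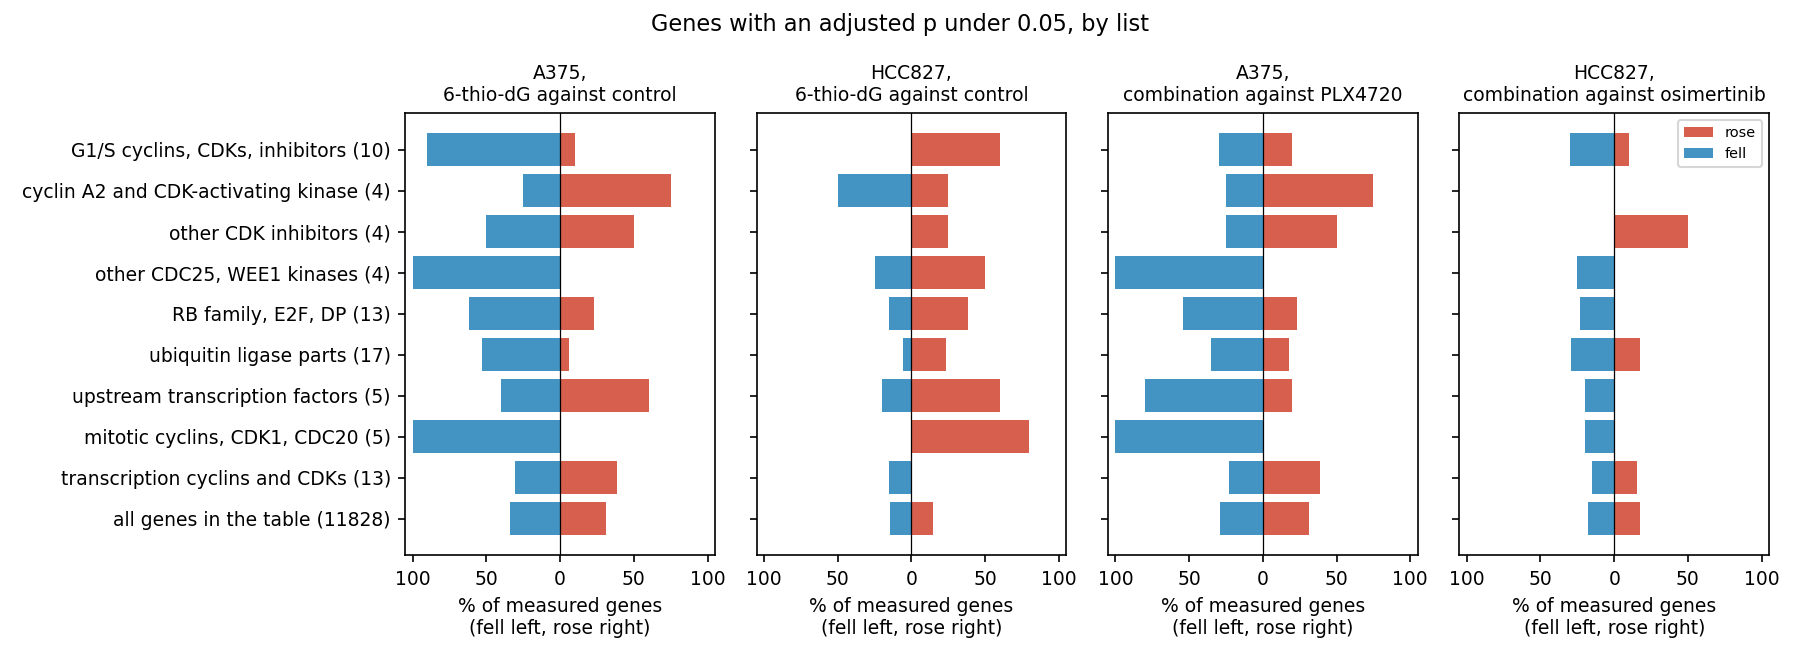
Share of the measured genes of each list (number in brackets) that rose, drawn to the right, or fell, drawn to the left, at an adjusted p under 0.05 in each of the 4 comparisons, with all 11828 genes in the bottom row. The G1/S row reaches 9 of 10 fallen in A375 and 6 of 10 risen in HCC827 after 6-thio-dG, and 3 of 10 fallen in either line with the combination.

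In the HCC827 combination, GC-poor transcripts tended to be lower and GC-rich ones higher. Spearman's rho of log2 fold change on GC content was 0.75 over 11803 genes, a description only, since all genes come from the same libraries. In the other comparisons rho was -0.38 (A375 after 6-thio-dG), 0.21 (HCC827 after 6-thio-dG) and -0.25 (A375 with the combination). CDK6, with 39.5% GC, fell and CDK4, with 53.6% GC, rose in that comparison, and with the trend removed from the authors' values they were at -0.18 (adjusted p = 0.637) and 0.22 (adjusted p = 0.342). Over all genes, 440 rose and 313 fell in that comparison with the trend removed. CCND1, with 50.3% GC, kept its fall, at -0.60 from the authors' values (adjusted p = 4.74e-05), and was the single member called in the HCC827 combination under that setting.

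**Figure D4:**
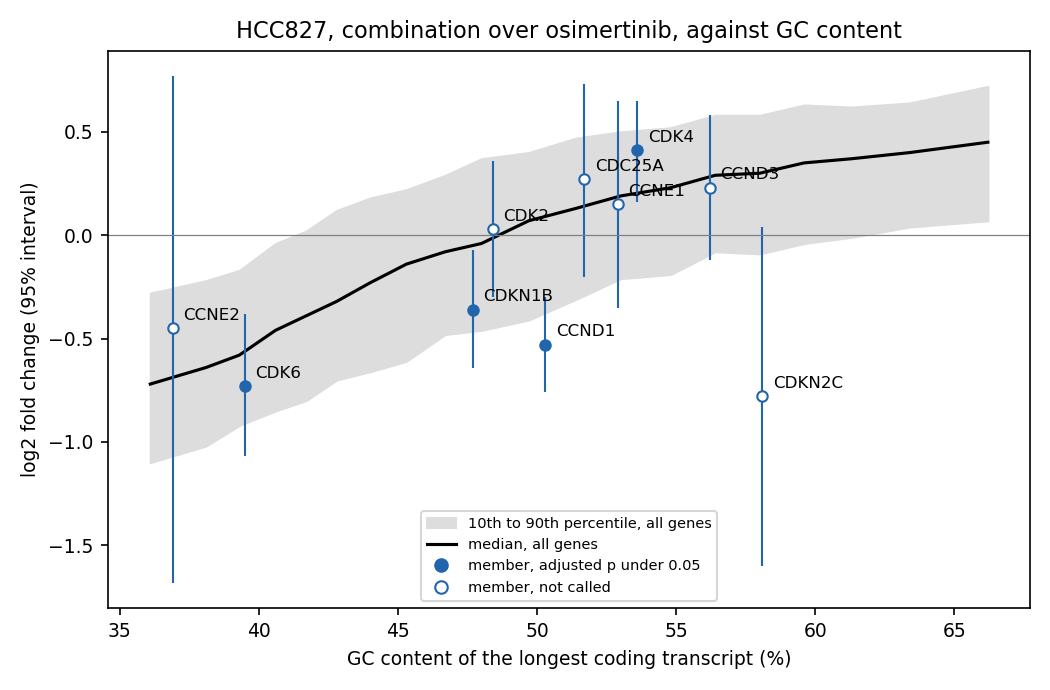
Log2 fold change in HCC827, combination over osimertinib (vertical axis), against the GC content of the longest coding transcript (horizontal axis). The black line is the median and the grey band the 10th to 90th percentile of all genes in 20 bins of GC content, and points are the 10 genes with 95% intervals, filled where the adjusted p was under 0.05; CDK6 and CDK4 lie within the band and CCND1, at -0.53, and CDKN2C, at -0.78, lie below it.

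For 3 members with unlike patterns, the 5 genes outside all lists with the nearest 4 log2 fold changes were found by Euclidean distance over the 4 comparisons. Nearest to CCNE2 were CLSPN (distance 1.15), FAM111B, KRTAP4-8, RIMS3 and GINS4 (1.65). CLSPN, a mediator of the replication checkpoint, stood at -1.52, 2.20, -0.25 and -0.41 in the authors' deposited table in A375 after 6-thio-dG, HCC827 after 6-thio-dG, A375 with the combination and HCC827 with it. Nearest to CDKN1B were LANCL1, C1orf21, PCDHB12, TSPAN3 and NAV3, at distances from 0.27 to 0.32. Nearest to CCND1 were HNRNPF, AMACR, SYNCRIP, RNASEH1 and HNRNPR, at distances from 0.19 to 0.27, of which HNRNPF, SYNCRIP and HNRNPR encode nuclear RNA-binding proteins. CCNE2 had no neighbour as near as those of the other 2.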

How the data were processed

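Per the labels' protocols, mRNA was selected on poly-T beads and made into libraries with an NEB Next Ultra kit. FastQC, Trimmomatic and STAR with hg38 are named in the submitters' processing notes. No source used here gives their versions, the counting tool, the test, strand handling or any gene filter. The authors deposited 1 table of 11828 genes. Per the file headers it holds log2 fold changes, p-values and adjusted p-values of 4 comparisons. It has 0 columns of values per library, so the depth is unknown. Of 36 libraries, 20 belong to a time course that was not analysed here.

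From these, a standard error was computed as the size of a log2 fold change over the two-sided normal z of its p-value (scipy 1.17.1). It could not be had for the 7 and 16 genes whose p-value is listed as 0 in A375, for 6-thio-dG and for the combination. Differences between 2 comparisons were divided by their combined error and read as a two-sided z, adjusted by Benjamini-Hochberg over all genes with both errors, in 4 families. The test was checked on simulated data only. Whether the authors' p-values came from a normal test, which the implied errors assume, was not tested. A lowess curve over 0.3 of the genes (statsmodels 0.14.6) removed the trend on the GC content of each gene's longest coding transcript in GENCODE 29, had for 99.8% of genes. The other alternatives were an adjusted p of 0.01, at least 2-fold, adjustment over the table's genes, p-values read from a t distribution (4 degrees of freedom, 8 for differences), and centring on the median.

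The members and lists were chosen with earlier results of these data known. Named genes are the 10 members, up to 2 called genes with the smallest p-values per list and comparison, and the 5 nearest to CCNE2, CDKN1B and CCND1. LTO1, TSPAN31, INTS8, CCNH and MNAT1, and further values of CDKN1A, CDK1, E2F2 and E2F8, were named after their values were seen. The p-values reflect the spread between libraries that may be technical. A comparison of protein sequences was not made.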

Additional observations from a re-analysis of the deposited data

Results flagged for a closer look

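The effects of 6-thio-dG alone differed between A375 and HCC827 for all 10 genes, by the z test of the difference at an adjusted p under 0.05. The A375 minus HCC827 differences in log2 fold change were -4.65 for CCNE2, -4.10 for CDC25A, -3.60 for CDKN2C, -3.28 for CCND3, -2.88 for CDK2, -1.58 for CCNE1, -1.31 for CDK4, -1.27 for CCND1, -0.59 for CDKN1B and 1.25 for CDK6. The combination differed between the lines for 5 genes, at -2.48 for CDKN2C, -1.28 for CDKN1B, -0.99 for CDK4, 0.50 for CCND1 and 1.38 for CDK6. For the combination the lines also differ in the targeted drug, and line and drug cannot be told apart in this design.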

How the results depend on the processing

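No paired analysis was possible because the table holds no values per library, and leaving out libraries was not run for the same reason. Adjustment over the table's genes kept every count of members within 1.5 times. The t reading kept the authors' adjusted p and so could not change the calls within a comparison. It kept the counts of differences within 1.5 times. The t reading added a call for the CDK6 difference of combination minus 6-thio-dG in A375. Of the 2 members that rose with the combination in A375, 1 remained at an adjusted p of 0.01, with the GC trend removed or with centring, and 0 at 2-fold. In the HCC827 combination, 0 of the 1 risen member remained at 2-fold or with the GC trend removed, and of the 3 fallen, 0 at 2-fold and 1 with the GC trend removed. Over all genes with the GC trend removed, rises went from 2052 to 440 and falls from 2115 to 313 in that comparison. In the A375 combination, rises over all genes went from 3685 to 3487 under that setting. All-gene counts at the other settings, and for the differences below, are not given here, so losses there cannot be called particular to members. For differences, the 1 above 0 between lines for 6-thio-dG fell to 0 with the GC trend removed. The 2 above 0 between lines for the combination fell to 1 at 2-fold and to 1 with the GC trend removed. The 2 below 0 within A375 fell to 0 at 2-fold, and the 8 below 0 within HCC827 to 5 at an adjusted p of 0.01. Removing the GC trend turned the sign of small values, none of them called: CCND1 to -0.03 in HCC827 after 6-thio-dG (-0.01 with centring), CCND3 to 0.03 in the A375 and -0.02 in the HCC827 combination, and CCNE1 to -0.01 and CCNE2 to 0.23 in the HCC827 combination. The line differences for the combination turned to 0.06 for CCND3 and -0.82 for CCNE2. Among other genes it turned CUL3 to 0.05, CUL4B to 0.14, CDK7 to 0.28, INTS8 to 0.16, MNAT1 to 0.34 and CCNH to 0.70 in the HCC827 combination, CDK7 to 0.07 and INTS8 to 0.04 in HCC827 after 6-thio-dG, and CCNH to -0.48, MNAT1 to -0.31 and INTS8 to -0.56 in A375 after 6-thio-dG. Of these, CCNH in both comparisons named and INTS8 in A375 passed with the turned sign. The cause of these turns was not tested. CCNE2, with an error of 0.63 in both combination comparisons, is limited most by precision.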

Other observations

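The CDK-activating kinase, formed by CDK7, cyclin H (CCNH) and MNAT1, phosphorylates the kinases described above and also RNA polymerase II. With cyclin A2 (CCNA2), the S-phase partner of CDK2, its subunits are the 4 measured genes of a list of 7. After 6-thio-dG 3 rose and 1 fell in A375, and 1 rose and 2 fell in HCC827. Over all genes 31.3% rose and 33.7% fell in A375, and 14.8% rose and 14.4% fell in HCC827. For the combination the all-gene shares were 31.2% risen and 29.3% fallen in A375, and 17.3% and 17.9% in HCC827. With the combination 3 rose and 1 fell in A375, and 0 passed in HCC827, where CCNH passed as a rise with the GC trend removed from the authors' values (0.70, adjusted p = 0.00364). With the combination in A375 all 3 subunits rose, at 1.40 for CDK7, 0.74 for CCNH and 0.98 for MNAT1 in the authors' deposited table, and with the GC trend removed from the authors' values CDK7 stood at 1.13, MNAT1 at 0.59 and CCNH at 0.29 (adjusted p = 0.0788). After 6-thio-dG in A375 they stood at 0.63, 0.61 and 0.62 in the authors' deposited table, a rise for each. With the trend removed from the authors' values none of these rises remained: CDK7 was at 0.14 (adjusted p = 0.414), MNAT1 at -0.31 (adjusted p = 0.103), and CCNH passed as a fall, at -0.48 (adjusted p = 0.00639). In HCC827 after 6-thio-dG CCNH and MNAT1 fell, at -0.87 and -0.70 in the authors' deposited table, and CDK7 was at -0.04. CCNA2 was at -4.31 in A375 and 0.74 in HCC827 after 6-thio-dG and at -1.90 with the combination in A375 in the authors' deposited table.

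Cyclins and CDKs that act on transcription, 13 genes measured of 13, were counted last. After 6-thio-dG 5 rose and 4 fell in A375, and 0 rose and 2 fell in HCC827. With the combination 5 rose and 3 fell in A375, and 2 rose and 2 fell in HCC827. Over all genes, 31.3% rose and 33.7% fell in A375 after 6-thio-dG, and 14.8% rose and 14.4% fell in HCC827. With the combination 31.2% rose and 29.3% fell in A375, and 17.3% rose and 17.9% fell in HCC827. Most counts of this list were thus near the table's shares. CDK12 and CDK9, kinases of RNA polymerase II, fell after 6-thio-dG in A375 at -0.85 and -0.83, and CCNL1 and CCNL2, cyclins tied to splicing, fell in HCC827 at -1.05 and -0.68, in the authors' deposited table. CDK19, a Mediator kinase, fell with the combination at -1.52 in A375 and -0.53 in HCC827 in the authors' deposited table, and the HCC827 call was lost with the GC trend removed (adjusted p = 0.654).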
